A study of Mus musculus with 17 samples.

Results

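Heat shock chaperone genes were followed across the prefrontal cortex of WT, hTau and CgA-KO/hTau mice. The set held 9 genes, namely the HSP70 genes Hspa1a, Hspa1b and Hspa8, the HSP90 genes Hsp90aa1 and Hsp90ab1, the cochaperone genes Dnajb1, Hsph1 and Bag3, and the small heat shock protein gene Hspb1. They were named by symbol, with earlier results of these data known, from the 56953 genes of the deposited count table, and all 9 passed the filter on low counts that left 23062 genes for testing. Polyadenylated RNA was sequenced from 17 libraries of B6C3F1/J mice aged 8 months on regular chow, with 5 WT, 6 hTau and 6 CgA-KO/hTau libraries. hTau mice, named PS19 in the study, carried a human P301S mutant Tau transgene driven by the Prnp promoter, which is active in many cell types of the brain. CgA-KO/hTau mice carried the same transgene and in addition lacked chromogranin A (CgA, gene Chga) through a whole-body knockout, so the transgene was common to both of these groups and absent from WT. No group with the CgA deletion alone was analysed here, so the effect of the deletion could be read only on the Tau background. The comparisons asked whether mutant Tau changed the chaperone transcripts and whether loss of CgA changed them in mice with Tau.

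Cytosolic chaperones bind unfolded or misfolded protein, and HSP70 and HSP90 use ATP to pass clients through cycles of binding and release that cochaperones start, speed up or end. In unstressed cells the transcription factor HSF1 is held inactive by chaperones, and misfolded protein, heat or proteasome block releases it to bind heat shock elements upstream of inducible genes. Tau is a known client of HSP70 and HSP90, and both machines are studied in tauopathy because they can refold Tau, hold it or send it for degradation.

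The heat shock element is an array of nGAAn units in alternating orientation. The sequences below, taken before RefSeq starts, show how inducible genes of the set differ in short matches to it. RefSeq promoter entries on GRCm38.p6, the same assembly as the mm10 build of the counts, were found for 6 of the 9 genes. The 250 bases before the annotated start are given for both stress-induced HSP70 genes and for Hspb1, and a stretch of 30 bases for Hsph1, with 2-unit matches to GAANNTTC or TTCNNGAA in capitals. Both motifs read the same on either strand. Each sequence runs 5′ to 3′ on the strand of its gene, at chr17:34972157-34972406 on the minus strand for Hspa1a, chr17:34959239-34959488 on the minus strand for Hspa1b, chr5:135887669-135887918 on the plus strand for Hspb1, and chr5:149636351-149636380 on the minus strand for Hsph1.
Hspa1a: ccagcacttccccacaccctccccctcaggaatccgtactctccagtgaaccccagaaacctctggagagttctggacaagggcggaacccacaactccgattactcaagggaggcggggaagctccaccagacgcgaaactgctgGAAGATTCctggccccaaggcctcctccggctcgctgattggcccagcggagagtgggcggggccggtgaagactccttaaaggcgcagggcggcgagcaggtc
Hspa1b: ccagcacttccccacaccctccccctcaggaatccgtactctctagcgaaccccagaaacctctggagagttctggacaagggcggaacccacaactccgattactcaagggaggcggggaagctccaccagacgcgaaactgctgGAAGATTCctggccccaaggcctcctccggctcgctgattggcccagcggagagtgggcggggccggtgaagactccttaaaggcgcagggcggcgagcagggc
Hspb1: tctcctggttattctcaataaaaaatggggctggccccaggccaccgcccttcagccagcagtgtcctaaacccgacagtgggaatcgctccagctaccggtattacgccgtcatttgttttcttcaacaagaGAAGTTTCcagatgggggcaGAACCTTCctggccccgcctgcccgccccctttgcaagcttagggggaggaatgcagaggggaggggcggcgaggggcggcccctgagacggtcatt
Hsph1: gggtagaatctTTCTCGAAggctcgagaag
Hspa1a and Hspa1b each held 1 match, from 104 to 97 bases before the start, and were equal at 247 of 250 positions. Counted from the 5′ end of the window, the differences from Hspa1a to Hspa1b were C44T, T47C and T249G, none of them in the match. Hspb1 held 2 matches, from 117 to 110 and from 97 to 90 bases before the start. Hsph1 held 1 match, from 54 to 47 bases before one RefSeq start and from 33 to 26 bases before another. The GENCODE span of Hsph1, which ends at 149636376, covers this match, so it is not upstream by that annotation. Dnajb1 and Bag3 had no match in their windows, whose RefSeq starts differ from the GENCODE starts given below. The Dnajb1 window at chr8:83608298-83608547 lies inside the gene span. Only exact matches were searched, so their absence does not show that these genes lack heat shock elements. Of 32851 RefSeq windows of the same length, 6.69% held GAANNTTC, 7.17% held TTCNNGAA and 12.8% held either. A match is a description of letters and not a bound site.

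Sequencing depth spanned 8838334 to 227651681 assigned counts, and the shallowest library, WT replicate 4, still gave at least 24 counts for each of the 9 genes. Chga had 0 counts in all 6 CgA-KO/hTau libraries and 152 to 180 CPM, which are counts scaled to library size with edgeR's TMM factors, in WT. Prnp, whose mouse sequence flanks the transgene, was 2.55-fold higher in hTau than in WT (log2 difference 1.35, edgeR adjusted p = 2.8e-05). Mapt libraries of the hTau group all lay above those of WT, but its log2 difference of 0.54 was not called (edgeR adjusted p = 0.184). WT replicate 4 gave 199 CPM for Mapt, against 606 to 740 CPM in the other WT libraries. Its share of counts from mitochondrial genes was 7.94%, against 3.53% to 4.08% in the other WT libraries. Defining markers of neurons, astrocytes and cortical layers were detected in every group. Striatal markers, summed over 12 genes, ran from 1309 to 3388 CPM in WT, 216 to 390 in hTau and 252 to 1845 in CgA-KO/hTau. CgA-KO/hTau replicates 1 to 3 stood apart from all other libraries, with 13.8% to 18.2% of counts from mitochondrial genes against 2.56% to 10.9% elsewhere. These 3 libraries also held the Y-chromosomal transcript Ddx3y, as did replicates 1 to 3 of WT and hTau (49.8 to 76.8 CPM in the 9 libraries), whereas the other 8 were at or below 0.058 CPM. In the labels used here no library has a stated sex. The study reports both males and females in each sequenced group, without saying which libraries they are. Choroid plexus and ependyma markers, summed over 8 genes, ran from 21.1 to 1101 CPM in the WT libraries without Ddx3y. They ran from 18.4 to 20.8 CPM in WT with Ddx3y, 5.96 to 7.49 in hTau and 8.11 to 19.6 in CgA-KO/hTau. Replicates 4 to 6 of hTau, and replicates 1 and 3 of CgA-KO/hTau, were unusually alike. Their median squared difference was 6.50 to 10.3 times that of counting noise, against 19.2 to 150 times in other pairs of a genotype. All were kept as separate samples, but whether they are independent was not tested. They make up the hTau libraries without Ddx3y and most CgA-KO/hTau libraries with it. All p-values given here, by genotype, by Ddx3y class and for correlations, rest on treating them as independent.

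Per kilobase of exon, the 9 genes spanned levels from the top of the transcriptome to its middle. Hsp90ab1 averaged 523 CPM per kb over the 17 libraries, Hspa8 averaged 334 and Hsp90aa1 averaged 271, at percentiles 99.83, 99.74 and 99.66 of 22336 tested genes with a known length. Hsph1 followed at 49.7 CPM per kb and Dnajb1 at 20.4. The stress-induced forms Hspa1b and Hspa1a stood at 7.23 and 6.31 CPM per kb, and Hspb1 and Bag3 were lowest at 3.71 and 3.25, at percentiles 61.0 and 58.6. In WT the neighbours Hspa8 (394 ± 97.1 CPM per kb, SD, n = 5) and Hsp90aa1 (314 ± 51.0) overlapped within 1 SD, as did Hspa1b with Hspa1a, and Hspb1 with Bag3. Both HSP90 genes and the constitutive HSP70 gene were therefore the abundant ones on this scale, with the inducible HSP70 pair far below them.

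None of the 9 genes passed the test in any of the 3 genotype comparisons. With edgeR's quasi-likelihood test, adjusted over all 23062 genes, 0 of 9 were called between hTau and WT, where 5.9% of all genes were called. Between CgA-KO/hTau and hTau 0 of 9 were called against 9.72% of all genes, and between CgA-KO/hTau and WT 0 of 9 against 6.46%. At an unadjusted p under 0.05 the counts were 0, 1 and 2 of 9, with Hspa1a in CgA-KO/hTau against hTau and Hsp90aa1 and Hsp90ab1 in CgA-KO/hTau against WT, where 20.9%, 27.8% and 21.7% of all genes lay under it. No gene of the set had libraries that did not overlap between genotypes, whereas 9.52%, 6.63% and 3.6% of all genes did in the same 3 comparisons. The median log2 difference of the 9 genes was -0.17, -0.14 and -0.35, beside medians over all tested genes of 0.01, 0.03 and 0.01. Relative to hTau, all 9 estimates in CgA-KO/hTau were below 0, none of them past the adjusted threshold. With the striatal marker score as a covariate, Hspa8, Hsp90aa1, Hsp90ab1 and Hsph1 were called lower in hTau than in WT, and these 4 and Hspa1a lower in CgA-KO/hTau than in WT, where 3496 and 4877 of all genes were called. The summed striatal markers did not overlap between WT and hTau, so genotype and striatal content cannot be told apart in that comparison. In bulk RNA, fewer cells of a type and less RNA per cell cannot be told apart.

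**Figure D1:**
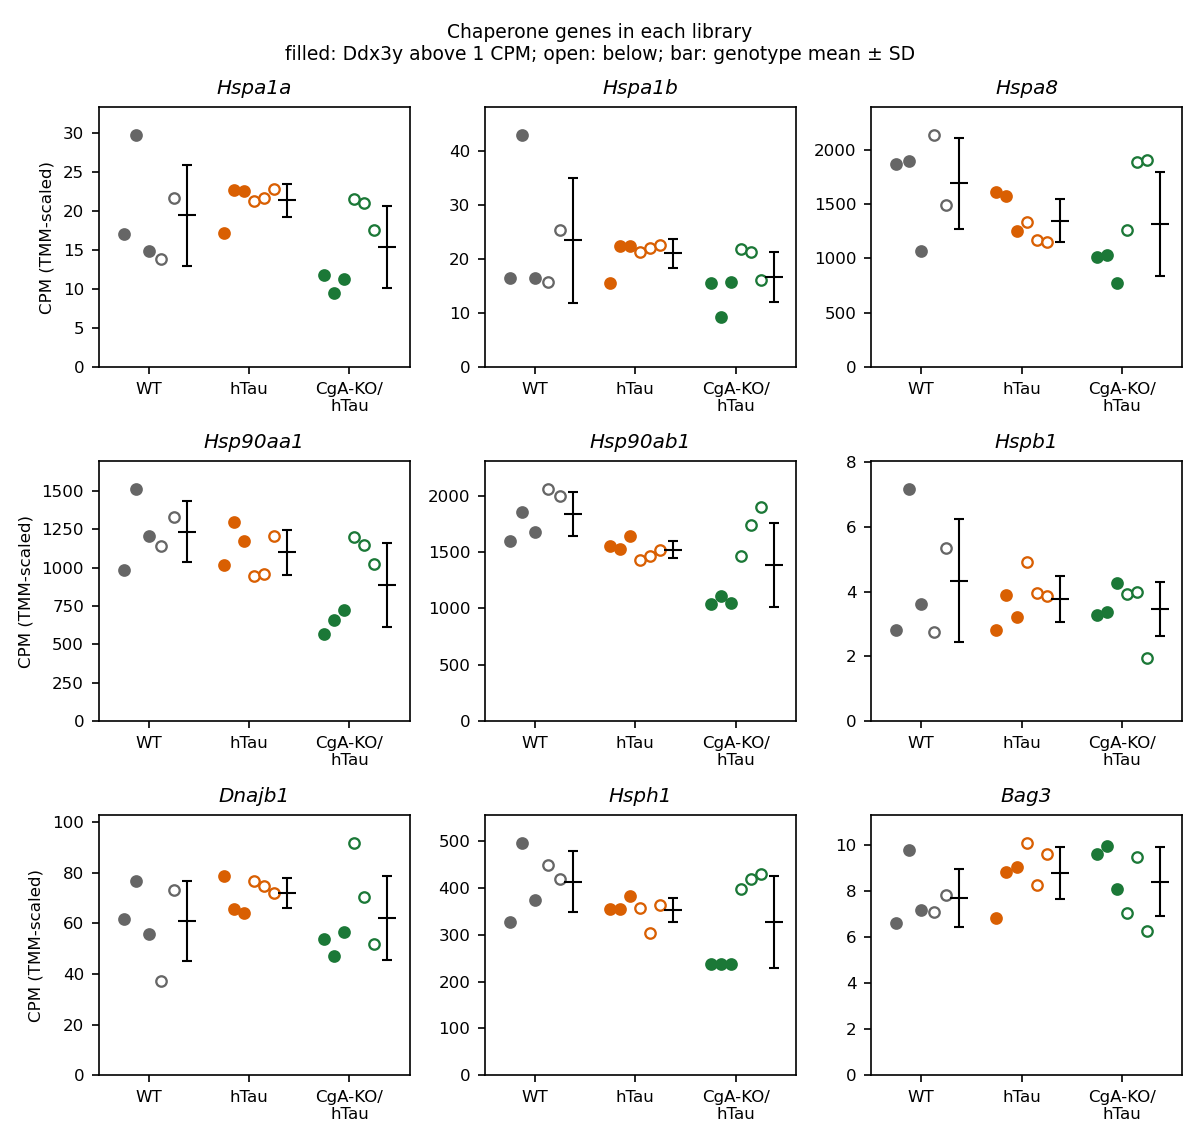
Level of each chaperone gene in each library, in TMM-scaled CPM on linear axes from 0, by genotype (5 WT, 6 hTau, 6 CgA-KO/hTau). Points are libraries, filled with Ddx3y above 1 CPM and open below it, and bars are genotype means ± SD. The genotypes overlap for all 9 genes. The filled CgA-KO/hTau points lie below the open ones for Hspa1a, Hspa1b, Hspa8, Hsp90aa1, Hsp90ab1 and Hsph1. The share of all genes with such a split was not counted.

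Hspa1a and Hspa1b encode nearly identical stress-induced HSP70 proteins and lie close together on the minus strand of chromosome 17, Hspa1a from 34969190 to 34972156 and Hspa1b from 34956436 to 34959238. Hspa1a measured 17.1, 29.8, 14.9, 13.8 and 21.7 CPM in WT replicates 1 to 5. In hTau its lowest, median and highest libraries were 17.2, 22.2 and 22.8 CPM, and in CgA-KO/hTau 9.48, 14.7 and 21.5 CPM. The WT range therefore enclosed the whole hTau range, and the lowest 3 of all libraries belonged to CgA-KO/hTau. Its level in CgA-KO/hTau was 0.722 times that in hTau, with a log2 difference of -0.47 (95% interval -0.92 to -0.02), whose unadjusted p of 0.0403 gave an edgeR adjusted p of 0.159. Against WT the log2 differences were 0.13 (-0.34 to 0.60) in hTau and -0.34 (-0.81 to 0.13) in CgA-KO/hTau.

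Hspa1b gave 16.5, 43.1, 16.6, 15.9 and 25.4 CPM in WT replicates 1 to 5. Its lowest, median and highest libraries were 15.7, 22.2 and 22.7 CPM in hTau and 9.36, 16.03 and 21.9 CPM in CgA-KO/hTau. WT replicate 2 was the highest of all 17 libraries for this gene and also for Hspa1a, Hsp90aa1, Hspb1 and Hsph1. Hspa1b differed by -0.16 log2 units between hTau and WT (-0.68 to 0.36), by -0.34 between CgA-KO/hTau and hTau (-0.83 to 0.16) and by -0.50 between CgA-KO/hTau and WT (-1.02 to 0.02). Without WT replicate 2 the hTau against WT estimate was 0.18. The coding parts of the 2 genes are nearly the same, and 1350 of the 100-base windows of their transcripts, 47.1% of those of Hspa1a and 49.9% of those of Hspa1b, occurred in both, so reads may have been split between them. The ratio of Hspa1b to Hspa1a counts ran from 0.912 to 1.02 in hTau and from 0.923 to 1.45 in the other genotypes. With the pair summed, hTau differed from WT by -0.02 log2 units. Hspa1a also overlaps a gene on the opposite strand over 2225 bases, and the strand setting of the counts is not given in the sources used here.

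Hspa8, on chromosome 9 from 40800984 to 40810087, encodes the constitutive HSC70 that serves folding, clathrin uncoating and chaperone-mediated autophagy. WT replicates 1 to 5 gave 1872, 1893, 1073, 2138 and 1488 CPM. The lowest, median and highest libraries were 1147, 1293 and 1611 CPM in hTau and 772, 1148 and 1908 CPM in CgA-KO/hTau. The hTau libraries lay in the lower part of the WT range, and the CgA-KO/hTau libraries ran from below the WT range up into its upper part. The log2 difference was -0.33 for hTau against WT (-0.80 to 0.14), -0.04 for CgA-KO/hTau against hTau (-0.48 to 0.41) and -0.37 for CgA-KO/hTau against WT (-0.83 to 0.10). Small nucleolar RNA genes, 3 in number and of 86 to 90 bases, lie inside Hspa8 on its strand.

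Hsp90aa1, the stress-responsive HSP90 alpha on chromosome 12 from 110690605 to 110702728, measured 981, 1514, 1209, 1141 and 1332 CPM in WT replicates 1 to 5. Its lowest, median and highest libraries were 948, 1096 and 1300.0 CPM in hTau and 565, 874 and 1201 CPM in CgA-KO/hTau. WT and hTau thus covered nearly one range, and part of the CgA-KO/hTau libraries fell below it. The gene stood at 0.718 times the WT level in CgA-KO/hTau (log2 difference -0.48, 95% interval -0.86 to -0.09, unadjusted p = 0.0179, edgeR adjusted p = 0.130). Against hTau the difference was -0.31 (-0.68 to 0.06), and hTau differed from WT by -0.17 (-0.55 to 0.22).

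Hsp90ab1, the constitutive HSP90 beta on chromosome 17 from 45567775 to 45573271, was the steadiest of the 9 genes within hTau. WT replicates 1 to 5 gave 1601, 1856, 1677, 2063 and 1996 CPM, for 1839 ± 199 (SD, n = 5). The hTau libraries were at 1431, 1522 and 1647 CPM for lowest, median and highest, and the CgA-KO/hTau libraries at 1042, 1291 and 1900.1 CPM. Only the highest hTau library exceeded the lowest WT library, while CgA-KO/hTau ran from far below both groups up into WT. The log2 difference was -0.27 for hTau against WT (-0.59 to 0.05, edgeR adjusted p = 0.322) and -0.41 for CgA-KO/hTau against WT (-0.72 to -0.09, unadjusted p = 0.0145, adjusted p = 0.116). CgA-KO/hTau differed from hTau by -0.14 (-0.44 to 0.17).

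Hsph1 encodes HSP110, a nucleotide exchange factor that resets HSP70 and works with it to dissolve aggregates, and lies on chromosome 5 from 149614287 to 149636376. Its WT replicates 1 to 5 gave 327, 497, 375, 449 and 419 CPM. In hTau the lowest, median and highest libraries were 305, 356 and 384 CPM, and in CgA-KO/hTau 238, 318 and 431 CPM. The hTau group was the narrowest, and ran from just below the lowest WT library to the lower part of the WT range. The log2 difference was -0.23 for hTau against WT (-0.59 to 0.13), -0.11 for CgA-KO/hTau against hTau (-0.45 to 0.23) and -0.34 for CgA-KO/hTau against WT (-0.70 to 0.02).

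Bag3, another nucleotide exchange factor that couples HSP70 to selective autophagy, was one of the few genes of the set above WT in its estimates. On chromosome 7 from 128523616 to 128546981, it gave 6.60, 9.79, 7.16, 7.07 and 7.81 CPM in WT replicates 1 to 5. The lowest, median and highest libraries were 6.83, 8.96 and 10.1 CPM in hTau and 6.27, 8.80 and 9.94 CPM in CgA-KO/hTau. These ranges were almost the same in the 3 genotypes. The log2 difference was 0.19 for hTau against WT (-0.12 to 0.50), -0.06 for CgA-KO/hTau against hTau (-0.35 to 0.23) and 0.13 for CgA-KO/hTau against WT (-0.18 to 0.43). A further transcript on the same strand overlaps Bag3 over 612 bases.

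Dnajb1, the HSP40 that delivers clients to HSP70 and drives its ATP cycle, is on chromosome 8 from 83608193 to 83612653. WT replicates 1 to 5 measured 61.6, 76.8, 55.8, 37.1 and 73.3 CPM. The lowest, median and highest libraries were 64.1, 73.4 and 78.9 CPM in hTau and 47.2, 55.2 and 91.9 CPM in CgA-KO/hTau. The low WT value came from the shallowest library, which still held 325 counts of the gene. The highest value of all came from CgA-KO/hTau replicate 4. The log2 difference was 0.24 for hTau against WT (-0.14 to 0.61), -0.22 for CgA-KO/hTau against hTau (-0.57 to 0.14) and 0.02 for CgA-KO/hTau against WT (-0.35 to 0.40).

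Hspb1, or HSP25, holds misfolded protein without ATP until HSP70 can act, and lies on chromosome 5 from 135887919 to 135889563. It measured 2.81, 7.18, 3.63, 2.74 and 5.35 CPM in WT replicates 1 to 5. Its lowest, median and highest libraries were 2.82, 3.88 and 4.91 CPM in hTau and 1.93, 3.64 and 4.26 CPM in CgA-KO/hTau. WT held both the widest range and the highest libraries. The log2 difference was -0.22 for hTau against WT (-0.74 to 0.30), -0.12 for CgA-KO/hTau against hTau (-0.62 to 0.37) and -0.35 for CgA-KO/hTau against WT (-0.87 to 0.17). The estimate for hTau against WT was 0.04 without WT replicate 2.

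**Figure D2:**
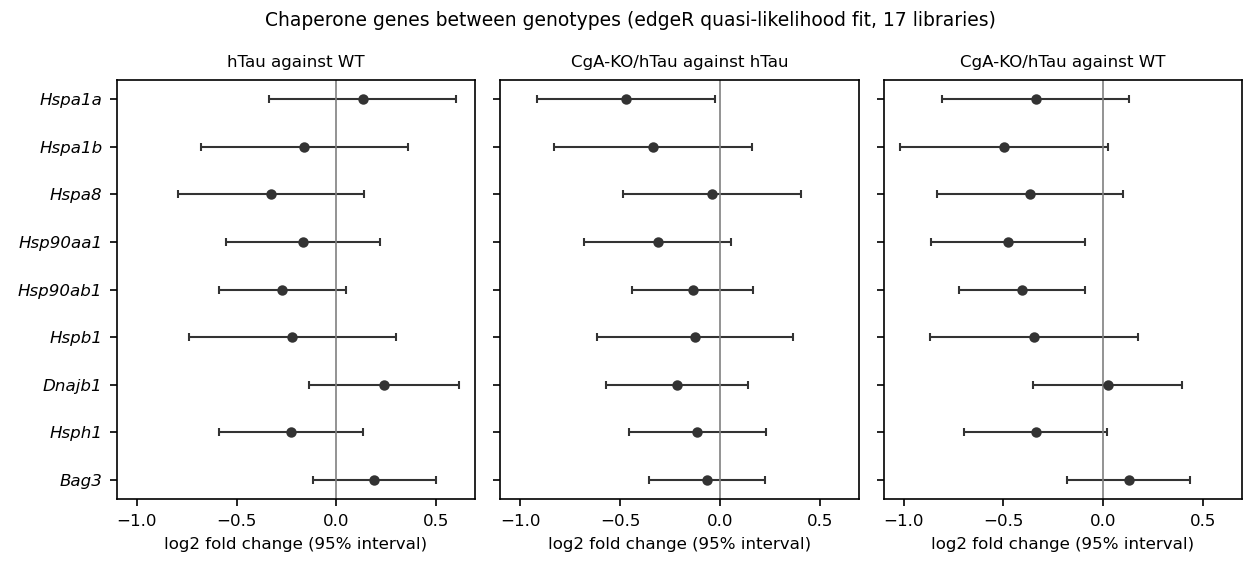
Log2 difference of each chaperone gene in the 3 genotype comparisons, with 95% intervals from edgeR's quasi-likelihood fit to all 17 libraries. Every adjusted p is above 0.05. The intervals that leave out 0 are those of Hspa1a for CgA-KO/hTau against hTau and of Hsp90aa1 and Hsp90ab1 for CgA-KO/hTau against WT.

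The CgA-KO/hTau group fell apart into 2 sets of libraries for most of these genes. Hsp90aa1 measured 565, 661 and 722 CPM in replicates 1 to 3, which held Ddx3y, and 1201, 1148 and 1026 CPM in replicates 4 to 6, which did not. Hsp90ab1 measured 1042, 1112 and 1049 CPM in the former and 1470, 1745 and 1900.1 CPM in the latter. Both HSP90 genes were thus lower in every library of the first set than in every library of the second. Hsph1 showed the same split, at 238, 238 and 238 CPM against 397, 419 and 431 CPM. Hspa8 gave 1016, 1031 and 772 CPM against 1265, 1887 and 1908 CPM, and Hspa1a 11.9, 9.48 and 11.3 CPM against 17.6 to 21.5 CPM. Bag3 did not follow this split, at 9.59, 9.94 and 8.11 CPM against 6.27 to 9.50 CPM. The share of all genes that split as Hsp90aa1 did was not counted, so the split is not shown to be particular to chaperone genes. In the other genotypes Hsp90ab1 was the only member whose libraries separated by Ddx3y, and it did so in opposite directions. The share of all genes that separated there was not counted either. In hTau it measured 1557, 1528 and 1647 CPM with Ddx3y and 1431, 1463 and 1516 CPM without it, whereas in WT it measured 1601, 1856 and 1677 CPM with Ddx3y and 2063 and 1996 CPM without it. The WT order was thus that of CgA-KO/hTau, and the hTau order was the reverse. For Hsp90ab1 the class difference of hTau against WT, 0.35 on the log2 scale, was not called (edgeR adjusted p = 0.453). The classes overlapped in WT and hTau for the other 8 genes, and in hTau Hsp90aa1 averaged 1164 ± 142 CPM with Ddx3y and 1037 ± 147 CPM without it (SD, n = 3 each), and Hsph1 364 ± 16.7 and 342 ± 32.4 CPM.

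Fitting a mean for each genotype in each Ddx3y class, a division chosen after the data had been seen, made the contrast explicit. Among libraries with Ddx3y, 5 of 9 genes fell in CgA-KO/hTau relative to hTau by edgeR's quasi-likelihood test, where 25% of all genes were called in either direction and 13.3% were called lower. Hsp90aa1 fell by 0.84 on the log2 scale (SE 0.16, edgeR adjusted p = 0.00168), to 0.558 times the hTau level. Hspa1a fell by 0.94 (SE 0.23, adjusted p = 0.00874), Hsp90ab1 by 0.56 (SE 0.095, adjusted p = 0.00083), Hsph1 by 0.62 (SE 0.12, adjusted p = 0.00264) and Hspa8 by 0.65 (SE 0.22, adjusted p = 0.0434). The genes that fell thus included both HSP90s, the constitutive HSP70, its exchange factor and 1 of the inducible HSP70 pair. The fall of Hspa8 was the least firm, being called in 11 of 23 alternatives, against 21 to 23 for the other 4 genes. Most of these alternatives leave out 1 library each. All libraries of CgA-KO/hTau lay below all of hTau for these 5 genes and Dnajb1, 6 of 9, beside 23.4% of all genes. Hspa1b (-0.57, adjusted p = 0.226) and Dnajb1 (-0.41, adjusted p = 0.205) were not called, and Hspb1 and Bag3 had estimates of 0.13 and 0.16.

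Among libraries without Ddx3y, 0 of 9 genes were called between CgA-KO/hTau and hTau, where 1.72% of all genes were (edgeR). Hsph1 had an estimate of 0.28 (SE 0.12, adjusted p = 0.237), Hspa8 of 0.47 (SE 0.22, adjusted p = 0.268), Hsp90ab1 of 0.21 (SE 0.095, adjusted p = 0.243) and Hsp90aa1 of 0.12 (SE 0.16, adjusted p = 0.731). These estimates had the opposite sign to those in the libraries with Ddx3y. The difference between the 2 classes was itself past the threshold for 4 of 9 genes, where 11.7% of all genes were. It was -1.13 for Hspa8 (SE 0.31, edgeR adjusted p = 0.0324), -0.96 for Hsp90aa1 (SE 0.22, 0.0137), -0.90 for Hsph1 (SE 0.17, 0.00536) and -0.78 for Hsp90ab1 (SE 0.13, 0.00285). Hspa1a missed it at -0.81 (SE 0.32, adjusted p = 0.120). Over 23 alternatives the calls of Hsph1, Hsp90ab1 and Hsp90aa1 held in 22, 22 and 21, and that of Hspa8 in 13, being lost without any 1 of 9 libraries, with an adjusted p of 0.0888 at most. Most of these alternatives leave out 1 library each and so share nearly all data. Averaging the near-identical libraries lost all 4 calls. The median difference of the 9 genes was -0.78, beside 0.03 over all genes.

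The comparison of CgA-KO/hTau with WT used the same CgA-KO/hTau libraries. With Ddx3y, 5 of 9 genes fell, where 16.5% of all genes were called in either direction and 9.39% were called lower. Hsph1 fell by 0.75 (edgeR adjusted p = 0.00115) and Hsp90aa1 by 0.93 (adjusted p = 0.00139). In the other libraries 0 of 9 were called against 5.45%. The difference between classes passed the test for Hsph1 alone (-0.69, SE 0.19, edgeR adjusted p = 0.0463), beside 5.47% of all genes. Between hTau and WT no class difference passed for any of the 9 genes, beside 13 of all 23062 genes. Within the libraries without Ddx3y, Hsp90ab1 fell by 0.47 in hTau relative to WT (SE 0.11, edgeR adjusted p = 0.011), where 11.9% of all genes were called on 2 WT and 3 hTau libraries. Those hTau libraries are the unusually alike replicates 4 to 6, which may not be independent. The WT libraries include replicate 4, the shallowest of all, with 7.94% of counts from mitochondrial genes. Choroid plexus and ependyma markers ran from 21.1 to 1101 CPM in these WT libraries, and their part in the result was not tested.

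**Figure D3:**
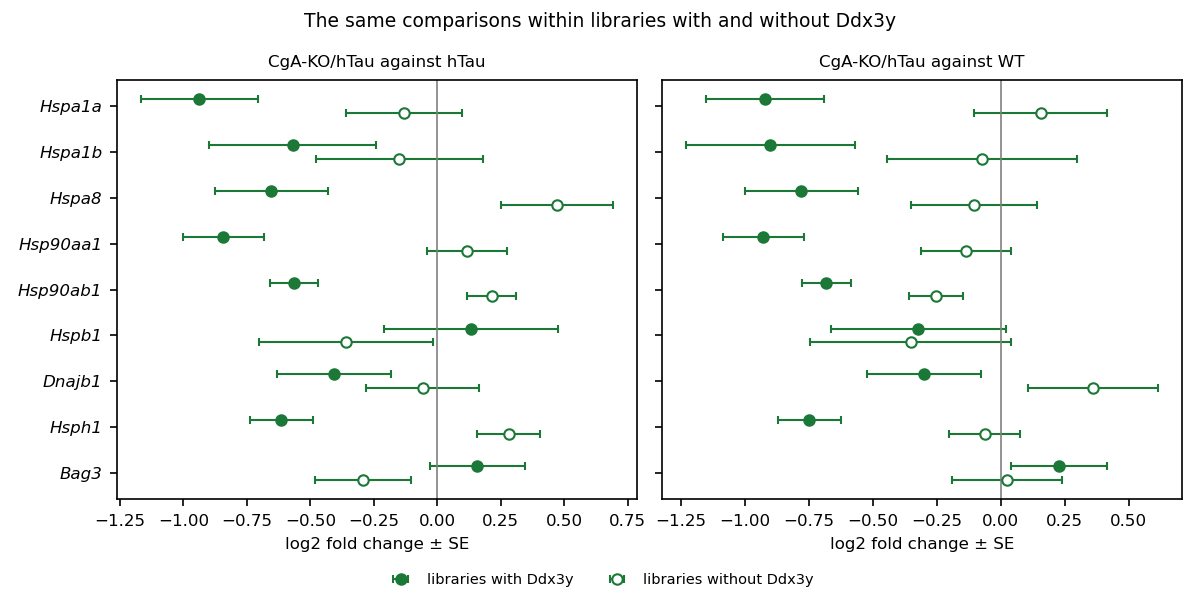
Log2 fold change ± SE of each chaperone gene for CgA-KO/hTau against hTau (left) and against WT (right), within libraries with Ddx3y (filled) and without it (open), from the edgeR fit. Against hTau, Hsph1, Hspa8, Hsp90aa1 and Hsp90ab1 lie between -0.84 and -0.56 with Ddx3y and between 0.12 and 0.47 without it.

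Several other measures moved with the Ddx3y class inside CgA-KO/hTau. The mitochondrial share of counts was 13.8% to 18.2% in replicates 1 to 3 and 3.84%, 6.63% and 10.9% in replicates 4 to 6, so the Ddx3y class and these library properties cannot be told apart in this group. Neuron markers, all 8 detected and none at 0, summed to 6023 to 9021 CPM in replicates 1 to 3 and to 10143 to 14695 CPM in replicates 4 to 6. Oligodendrocyte markers, again 8 of 8 detected, summed to 2621 to 3053 CPM against 1588 to 1699 CPM, and astrocyte markers to 4547 to 6913 CPM against 1483 to 3618 CPM. Striatal markers ran from 498 to 1845 CPM against 252 to 448 CPM. Prnp, read here as a sign of the transgene, was at 1236 to 1348 CPM in replicates 1 to 3 and at 1676 to 2079 CPM in replicates 4 to 6. Over all libraries it fell by 0.44 in CgA-KO/hTau relative to hTau (edgeR adjusted p = 0.0304), a call made in 22 of 32 alternatives. Mapt was at 584 to 622 CPM against 722 to 868 CPM, where WT libraries with Ddx3y gave 606 to 740 CPM. The low chaperone libraries were thus also lowest in neuronal, Prnp and Mapt transcripts and highest in glial transcripts within their genotype, and the part of these measures in the result was not tested.

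With the mitochondrial share as a covariate, an alternative added after the data had been seen, 75 of all 23062 genes were called between CgA-KO/hTau and hTau, and 7 of the 9 chaperone genes took the opposite sign, with Hspa8 at 0.25 and Hsp90aa1 at 0.18. Leaving out CgA-KO/hTau replicates 1 to 3 gave Hspa8 0.31, Hsph1 0.22, Hsp90ab1 0.15 and Hsp90aa1 0.02, none of them called. In the fit by Ddx3y class with the same covariate, 4 of 9 genes were called for the class difference, where 6471 of all 23062 genes were. Hsp90aa1 was no longer among them, and Dnajb1 was, with the opposite sign at 0.90. Averaging the near-identical libraries left 0 of the 9 genes and 14 of all genes called for the class difference.

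**Figure D4:**
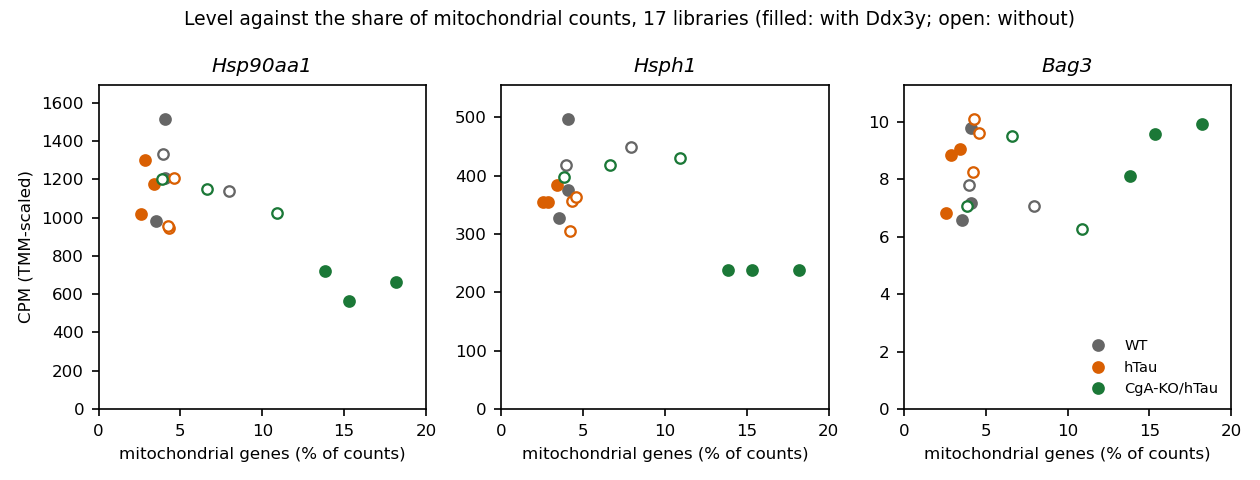
Level of Hsp90aa1, Hsph1 and Bag3 in TMM-scaled CPM against the percent of counts from mitochondrial genes, in 17 libraries coloured by genotype, filled with Ddx3y and open without it. CgA-KO/hTau replicates 1 to 3, at 13.8% to 18.2%, hold the lowest levels of Hsp90aa1 and Hsph1 (565 to 722 and 238 CPM), while their Bag3 levels of 8.11 to 9.94 CPM lie within the range of the other libraries.

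The wider chaperone system was read from gene lists, whose counts stand beside the 5.9%, 9.72% and 6.46% of all genes called for hTau against WT, CgA-KO/hTau against hTau and CgA-KO/hTau against WT. Of 24 further genes on a list of heat and HSF1 targets, 1 rose in hTau relative to WT. It was Hspa1l, a testis-enriched HSP70 next to Hspa1a, by 0.82 (SE 0.18, edgeR adjusted p = 0.0128). Membership of the list does not show that Hspa1l is induced by heat. In CgA-KO/hTau relative to hTau 1 of 24 fell, the HSP90 immunophilin gene Fkbp4, by 0.45 (SE 0.14, edgeR adjusted p = 0.0433), an estimate that became 0.0011 with the mitochondrial share as covariate. Relative to WT none was called. Of 11 heat shock factors and their regulators, Hsf4 rose by 0.83 and Hsf2 fell by 0.37 in hTau relative to WT, and none was called in the other 2 comparisons. Hsf1 itself averaged 19.1 ± 4.80 CPM in WT (n = 5), 16.3 ± 2.91 in hTau and 17.9 ± 1.60 in CgA-KO/hTau (n = 6 each, SD). Its log2 differences were -0.23, 0.14 and -0.09, with no call in any.

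Among 30 other cytosolic HSP70 genes and cochaperones, Dnajc27 rose by 0.39 and Hspa2 fell by 0.51 in hTau relative to WT. Dnajc6, the neuronal auxilin that recruits HSC70 to clathrin coats, fell by 0.37 in CgA-KO/hTau relative to hTau. Of 14 HSP90 cochaperones, Cdc37l1 rose by 0.31 and the stress hormone-responsive Fkbp5 fell by 0.68 in CgA-KO/hTau relative to WT, and none was called in the other comparisons. Small heat shock proteins other than Hspb1 gave no call among the 8 tested of 9. Of 11 mitochondrial chaperones, Trap1, the mitochondrial HSP90, fell by 0.26 in CgA-KO/hTau relative to hTau. Of 14 chaperonin and prefoldin subunits, Pfdn5 rose by 0.53 relative to hTau and by 0.63 relative to WT in CgA-KO/hTau, but its difference from hTau turned to -0.17 with the mitochondrial share as covariate. These calls come from edgeR's test, adjusted over all genes, and the medians of the lists lay between -0.24 and 0.38.

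Endoplasmic reticulum chaperones and unfolded protein response genes, 24 in number, gave 1 call in hTau against WT, 2 in CgA-KO/hTau against hTau and 4 in CgA-KO/hTau against WT, the first 2 counts being shares below those of all genes. Calr, the lectin chaperone calreticulin, averaged 642 ± 123 CPM in WT (n = 5), 443 ± 18.3 in hTau and 411 ± 91.5 in CgA-KO/hTau (n = 6 each, SD). It fell by 0.54 in hTau and by 0.65 in CgA-KO/hTau relative to WT. Hyou1 and Canx also fell in CgA-KO/hTau relative to WT, by 0.77 and 0.30. Atf3, a stress-induced transcription factor gene near the floor of detection, rose by 2.06 relative to hTau, from 0.425 ± 0.091 to 1.77 ± 1.09 CPM, and Eif2ak3, which encodes the stress sensor PERK, fell by 0.40. Eif2ak3 averaged 22.4 CPM in CgA-KO/hTau replicates 1 to 3 and 28.4 CPM in replicates 4 to 6, against 33.5 CPM in hTau. Of 16 immediate early genes Jun fell, by 0.67 in hTau and by 0.61 in CgA-KO/hTau relative to WT. Calls in the wider lists varied in firmness over the alternatives of processing, from Fkbp4 and Canx, called in 13 of 32, to Dnajc27, called in 31.

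The Ddx3y class divided the wider lists as well. Between CgA-KO/hTau and hTau in libraries with Ddx3y, edgeR called 6 of 24 genes on the HSF1 list lower and 1 higher. It called lower 11 of 30 HSP70 genes and cochaperones, 5 of 14 HSP90 cochaperones, and 4 of 11 heat shock factors and regulators. Mitochondrial chaperones gave 4 lower and 1 higher of 11, chaperonin and prefoldin subunits 3 lower and 1 higher of 14, and endoplasmic reticulum genes 4 lower of 24. These counts stand beside the 13.3% of all genes called lower and 11.7% called higher in that comparison. In libraries without Ddx3y no gene of the cytosolic and mitochondrial lists was called. Atf3 rose among the endoplasmic reticulum genes, and 3 of 16 immediate early genes rose, beside 1.08% of all genes called higher. The class difference passed the test for 10 of 16 immediate early genes, all lower with Ddx3y, led by Ier2, Btg2, Dusp1 and Fosb. Of all genes 11.7% passed it and 6.68% were lower with Ddx3y.

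Between mice of 1 genotype some of the 9 genes varied together. After the genotype mean was subtracted, 8 of 36 gene pairs passed a two-sided permutation test over the 17 libraries with Benjamini-Hochberg adjustment, all of them positive, but the CgA-KO/hTau libraries form the 2 clusters described above, so no pooled coefficient is given. Over the 11 WT and hTau libraries 2 of 36 pairs passed. Hspa1a and Hspa1b gave Pearson r = 0.98 and Spearman rho = 0.96 (permutation p = 9.0e-05, adjusted p = 0.00324, n = 11), and r = 0.95 without the 2 libraries farthest from the median, although the shared sequence of the pair can tie their counts. Hspb1 and Bag3, which encode partners in the holding and disposal of misfolded protein, gave r = 0.84 (permutation, adjusted p = 0.0164) and rho = 0.75 (permutation, adjusted p = 0.120), and r = 0.76 without the 2 farthest libraries.

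Outside the set, the genes whose level over the 17 libraries most resembled the mean of the 9 were found among 12526 genes with a mean log2 CPM of at least 2. They were Pnoc (r = 0.89), the processed pseudogene Gm15459 (0.89), Tmed10 (0.89), the HSP40 gene Dnaja4 (0.88) and Tspan13 (0.88), given as a description with no test, since all were measured in the same libraries. Pnoc measured 2.07 to 2.75 CPM in CgA-KO/hTau replicates 1 to 3 and 4.10 to 7.89 CPM in the other 14 libraries, so its resemblance followed the same 3 libraries.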

How the data were processed

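RNA from prefrontal cortex was sequenced by the authors as paired-end 100-base reads (KAPA mRNA HyperPrep, Illumina NovaSeq). Per the study's methods and the submitters' processing notes, reads were trimmed with Trimmomatic 0.39, mapped to mm10 with STAR 2.7.10b and quantified with StringTie 1.3.6, and prepDE.py3 turned the output into the gene counts that the authors deposited. The annotation release and strand setting are not given in the sources used here. Because StringTie derives counts from coverage, reads of near-identical genes may be divided between them.

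From the deposited counts, edgeR 4.0.16 (R 4.3.3) gave TMM-scaled CPM and quasi-likelihood tests on all 17 libraries, after filterByExpr by genotype left 23062 genes. The authors' own test was DESeq2 1.42.0, used here as an alternative. P-values were adjusted by Benjamini-Hochberg over all tested genes and called under 0.05. The common biological coefficient of variation was 0.3162. Lengths and coordinates come from GENCODE M21. Correlations used log2(CPM + 0.5) and 100000 permutations within genotype. limma 3.58.1 served the voom alternative, and scipy 1.17.1, pandas 2.3.3 and matplotlib 3.10.9 the rest. The fits were tested on simulated data. Total counts were 8838334 to 184389431 in WT, 53271515 to 227651681 in hTau and 37657767 to 184877001 in CgA-KO/hTau, and reads carried no molecular identifiers.

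The 9 genes and the gene lists were chosen with earlier results of these data known. Genes named from a list were those with adjusted p under 0.05, at most 4 per list and comparison by smallest p, and the 5 genes most like the mean of the set. Replicates are separate libraries, and the study counts them as separate mice. The division by Ddx3y, the mitochondrial covariate, leaving out CgA-KO/hTau replicates 1 to 3 together and the correlations without CgA-KO/hTau were added after the data had been seen. Other alternatives were DESeq2, its size factors, voom, filters on low counts, fits to 2 genotypes, a replicate block, Ddx3y and striatal covariates, averaging near-identical libraries, summing Hspa1a with Hspa1b, and leaving out each library.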

Additional observations from a re-analysis of the deposited data

Results flagged for a closer look

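In the hTau group, replicate 1 lay apart from the other 5 libraries by Dixon's test for both stress-induced HSP70 genes, at 17.2 CPM for Hspa1a and 15.7 CPM for Hspa1b, where both genes had a group median of 22.2 CPM. The 2 genes share sequence, so this is 1 observation rather than 2. Of 27 groups tested 2 were marked, and chance marks about 1 in 20.

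The difference between CgA-KO/hTau and hTau itself differed between libraries with and without Ddx3y for 4 genes, tested as an interaction with edgeR. It was -0.90 for Hsph1, -1.13 for Hspa8, -0.96 for Hsp90aa1 and -0.78 for Hsp90ab1 on the log2 scale, each lower with Ddx3y. For CgA-KO/hTau against WT the interaction passed for Hsph1, at -0.69. In CgA-KO/hTau the 3 libraries with Ddx3y are also those with the highest mitochondrial share of counts (13.8% to 18.2%), so the 2 cannot be told apart within that genotype. Leaving out each library in turn kept the interaction of Hsph1, Hsp90aa1 and Hsp90ab1 past the threshold in all 17 cases, whereas averaging the near-identical libraries left none of the 4.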

How the results depend on the processing

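The count of chaperone genes called was 0 under most alternatives. Exceptions for hTau against WT were 1 when only the 2 genotypes compared were fitted and 4 with the striatal marker score as covariate. For CgA-KO/hTau against hTau the exception was 1 with limma voom. For CgA-KO/hTau against WT they were 2 with voom, 5 with the striatal score and 1 with the Ddx3y level as covariate. Leaving out each library gave 0 for the first 2 comparisons and 0 to 1 for the third.

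Counts over all genes depended strongly on the processing. From 1361 for hTau against WT they went to 2408 with DESeq2, 2275 with 2 genotypes, 3967 with voom, 3496 with the striatal score, 425 with near-identical libraries averaged, 2175 without CgA-KO/hTau replicates 1 to 3, and 632 to 1658 leaving out each library. From 2242 for CgA-KO/hTau against hTau they went to 3970 with DESeq2, 5229 with voom, 994 with the striatal score, 168 with averaging, 75 with the mitochondrial share, 346 without CgA-KO/hTau replicates 1 to 3, and 1019 to 3822 leaving out each library. From 1489 for CgA-KO/hTau against WT they went to 2575 with DESeq2, 266 with 2 genotypes, 2458 with voom, 4877 with the striatal score, 578 with averaging, 253 with the mitochondrial share, 982 without those replicates, and 627 to 2099 leaving out each library.

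Replicate numbers did not pair the samples, since 2 of 16 same-numbered pairs had a correlation of deviations over 0.1 (range -0.199 to 0.424). The replicate block lowered the counts over all genes to 660, 654 and 614 and left 0 of the 9 genes called in each comparison.

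Some estimates changed sign, those of the called genes Fkbp4 and Pfdn5 among them, and the cause was not tested. For hTau against WT, Hspa1a became -0.57 and Dnajb1 -0.0058 with the striatal score, and Hspa1a -0.019 when summed with Hspa1b; leaving out libraries gave -0.27 to 0.18 for Hspa1b and -0.34 to 0.037 for Hspb1. For CgA-KO/hTau against hTau, the mitochondrial share gave Hspa1a 0.12, Hspa1b 0.13, Hspa8 0.25, Hsp90aa1 0.18, Hsp90ab1 0.085, Dnajb1 0.35, Hsph1 0.23, Mapt 0.32, Fkbp4 0.0011 and Pfdn5 -0.17. The striatal score gave Hspa8 0.32, Hsp90ab1 0.079 and Hsph1 0.14, and leaving out CgA-KO/hTau replicates 1 to 3 gave Hspa8 0.31, Hsp90aa1 0.022, Hsp90ab1 0.15 and Hsph1 0.22. At least 10 counts in every library gave Hspa8 0.010 and Bag3 0.00086, and leaving out libraries gave -0.17 to 0.085 for Hspa8 and -0.13 to 0.0072 for Bag3. For CgA-KO/hTau against WT, the mitochondrial share gave Hspa1a 0.13, Bag3 -0.044 and Hsf1 0.11, and leaving out CgA-KO/hTau replicates 1 to 3 gave Hspa1a 0.035, Hsph1 0.0098 and Bag3 -0.018. Dnajb1 became -0.0015 with no filter, -0.15 with voom, -0.13 with the striatal score and -0.0073 with the Ddx3y level, and ran from -0.12 to 0.12 leaving out libraries, where Hsf1 ran from -0.17 to 0.032.

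In the fit by Ddx3y class, the mitochondrial share gave Hspa1b 0.20 and Dnajb1 1.19 with Ddx3y for CgA-KO/hTau against hTau, and Hspa1a 0.0056, Hspa1b 0.028 and Dnajb1 0.28 without it, where Dnajb1 ran from -0.28 to 0.13 leaving out libraries. For the class difference it gave Hspa1b 0.18 and Dnajb1 0.90. The genes of the set past the threshold for that difference were 0 of 9 with near-identical libraries averaged and 3 to 5 leaving out each library, and the count over all genes, 2687, became 6471 with the mitochondrial share, 14 with averaging, 8239 with voom and 1490 to 4017 leaving out each library. Correlated pairs fell from 8 to 2 without CgA-KO/hTau. Depth limits Hspb1 and Bag3 most, with 24 and 62 counts in the shallowest library.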
